A study of Mus musculus with 24 samples.

Results

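Messenger RNAs of heart muscle were followed in mouse lung in 10 genes: Myh6, Myl7, Myl4, Actc1, Tnnt2, Tnni3, Ryr2, Sln, Nppa and Tnni3k. They were taken from a list of names chosen with earlier results of these data known. Each gene was read from its spot with the highest mean over all samples. All 10 were present among 20738 genes named on the array, and all 10 were among the 16519 genes that passed the filter on dim spots. The study holds 24 lung RNA pools, each made from 2 female C57BL/6 mice of 7 to 8 weeks. A carbon nanomaterial was given by oropharyngeal aspiration, in which a mouse inhales a drop set on its throat, at 10 µg a day in 50 µl of saline (PBS) for 4 days, and lungs were collected 24 h after the last dose. The materials carry the label names rCNT (3 samples), tCNT (3), SES (3), BayTubes (4), Graphite (4) and fullerene (4), and the Ctrl group (3) received PBS alone. Samples are named here by group and the number in their title. A sample is a mixture of 2 animals, so spread between single mice was not measured, and p-values measure the spread between pools.

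Heart muscle contracts when calcium released through the channel Ryr2 binds troponin and lets the myosin of thick filaments pull on the actin of thin filaments. Atrial muscle uses its own myosin light chains, Myl7 and Myl4, the calcium pump regulator Sln and the hormone Nppa, whereas ventricular muscle uses Myl2 and Myl3. In mice, muscle of the atrial type extends from the left atrium along the pulmonary veins into the lung, so lung RNA is known to hold such transcripts. Values are log2 signals, on which a difference of 1 is a doubling. A level is compared only between samples of the same gene, since spots of different genes are not on a common scale. In whole tissue, a lower value can mean fewer cells of a type or less RNA per cell, and these cannot be told apart.

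The promoters of 4 members are shown because their RNAs differed in how they varied among samples: Myl7 and Myh6 moved almost in step, while Nppa and Actc1 followed them less closely over the 24 samples. Sequences are from RefSeq (GRCm38.p6), 5′ to 3′ on the gene's strand, and run from 250 bases before an annotated start to 50 bases from it. Entries were found for 9 of 10 members. Capitals mark letters that match a CArG box (the motif of serum response factor), a MEF2 site, the GATA letters AGATAA or TGATAA, the T-box letters TCACACCT or the TATA letters TATAAA, on either strand.

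Myl7, chr11:5898733-5899032, minus strand: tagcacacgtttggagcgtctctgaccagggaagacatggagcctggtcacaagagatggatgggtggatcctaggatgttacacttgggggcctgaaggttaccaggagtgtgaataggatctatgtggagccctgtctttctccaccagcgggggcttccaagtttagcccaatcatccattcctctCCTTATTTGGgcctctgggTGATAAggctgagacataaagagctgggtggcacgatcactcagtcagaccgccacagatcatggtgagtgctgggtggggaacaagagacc

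Myh6, chr14:54966558-54966857, minus strand: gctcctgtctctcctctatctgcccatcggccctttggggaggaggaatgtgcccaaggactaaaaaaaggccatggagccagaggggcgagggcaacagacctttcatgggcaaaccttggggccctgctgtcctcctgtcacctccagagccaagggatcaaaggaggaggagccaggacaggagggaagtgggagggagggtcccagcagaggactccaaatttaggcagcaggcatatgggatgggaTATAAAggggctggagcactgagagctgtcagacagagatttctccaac

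Nppa, chr4:148000472-148000771, plus strand: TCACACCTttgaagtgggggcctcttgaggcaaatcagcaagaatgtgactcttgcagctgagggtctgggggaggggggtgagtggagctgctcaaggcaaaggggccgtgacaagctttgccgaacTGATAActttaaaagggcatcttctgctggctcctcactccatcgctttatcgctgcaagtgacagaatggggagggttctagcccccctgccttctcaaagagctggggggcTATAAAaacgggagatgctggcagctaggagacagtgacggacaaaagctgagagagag

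Actc1, chr2:114052826-114053125, minus strand: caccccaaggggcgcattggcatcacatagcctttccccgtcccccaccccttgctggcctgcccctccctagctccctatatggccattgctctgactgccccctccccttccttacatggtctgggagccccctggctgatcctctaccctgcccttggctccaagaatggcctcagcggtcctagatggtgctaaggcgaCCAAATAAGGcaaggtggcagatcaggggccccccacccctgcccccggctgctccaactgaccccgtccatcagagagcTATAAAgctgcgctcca

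The Myl7 window held a CArG box starting 61 bases before the start and TGATAA 42 bases before it. A CArG box also lay in the Actc1 window, 47 bases before the start, with TATAAA 33 bases after it. The Nppa window held TCACACCT at its first base, TGATAA 122 bases and TATAAA 9 bases before the start. In the Myh6 window TATAAA was the only match, 1 base after the annotated start. Over 32851 windows of the same length, a CArG box was found in 1.63%, a MEF2 site in 3.19%, AGATAA or TGATAA in 18.61%, TCACACCT in 1.28% and TATAAA in 13.62%. Among the 9 members with a window, CArG boxes were in 2, a MEF2 site in 1 (Tnni3k), a GATA match in 3, TCACACCT in 2 and TATAAA in 3. The motifs do not overlap in letters with each other in the windows shown. These matches describe the letters and do not show binding.

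The tissue carried its label's markers: the surfactant gene Sftpc of alveolar type 2 cells ranged from 16.82 to 17.97 over the 24 samples. The 12 arrays were spread over 3 slides, and each dye of an array held its own sample. Ctrl 2 was on slide 1 in Cy5, and Ctrl 1 and Ctrl 3 were on slide 2 in Cy3. Values of all samples had nearly the same distribution, differing by at most 0.086 at any rank, and the 40th percentile lay between 5.69 and 5.75. As the values carry no counts, the number of samples limits the precision.

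Among the thick filament genes, Myh6 encodes the alpha myosin heavy chain, the fast motor of the adult mouse heart. The 3 Ctrl samples read 12.78, 10.37 and 12.54, and the 3 rCNT samples 10.48, 12.84 and 12.69. In tCNT the values were 13.31, 13.30 and 13.71, and in SES 12.71, 11.75 and 12.71. BayTubes read 11.86, 12.59, 11.77 and 11.82 in samples 17 to 20. Each of the tCNT values was above all Ctrl values, and Ctrl 2 and rCNT 4 were low within their groups. Graphite read 10.26, 11.25, 13.72 and 12.05 in samples 13 to 16, and fullerene read 10.73, 12.16, 12.73 and 12.08 in samples 21 to 24. Graphite alone thus covered the full range of the series, from the lowest value (Graphite 13) to the highest (Graphite 15), an 11.0-fold spread among pools given the same material. Means were 13.44 ± 0.23 (SD, n = 3) in tCNT, 11.90 ± 1.33 (n = 3) in Ctrl and 11.82 ± 1.46 (n = 4) in Graphite. Another, dim Myh6 spot (mean 6.44) correlated at only 0.288 with the spot used, and its tCNT mean lay 0.87 below Ctrl where the spot used lay 1.54 above.

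The regulatory light chain of atrial myosin, Myl7, ranked the samples much as Myh6 did, but with other samples at its ends. It read 9.03, 6.66 and 8.97 in Ctrl and 9.58, 9.56 and 10.01 in tCNT. The groups did not overlap, and Ctrl 2 was the lowest sample of the series. Graphite 15 (9.78) was the only sample outside tCNT above 9.13. Myl4, the essential light chain of atria and of embryonic muscle, read 12.14, 10.35 and 11.91 in Ctrl and 12.32, 12.48 and 13.12 in tCNT. Its lowest sample was rCNT 4 (10.07) and its highest tCNT 9, an 8.3-fold range.

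Of the thin filament genes, Actc1 encodes cardiac actin and departed from this order. It read 12.96, 13.23 and 12.85 in Ctrl, 13.26, 13.93 and 13.89 in rCNT, and 13.36, 12.92 and 13.53 in tCNT. All 3 rCNT samples were above every Ctrl sample, while tCNT overlapped Ctrl. SES read 13.17, 12.98 and 12.87 and BayTubes 12.96, 13.08, 13.04 and 12.97, so both lay within the Ctrl range. The lowest, median and highest values were 12.45, 13.15 and 13.43 in Graphite and 12.97, 13.13 and 13.32 in fullerene. The entire range of Actc1 was 2.8-fold, against 11.0-fold for Myh6.

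Tnnt2 and Tnni3 encode the heart forms of troponin T, which anchors troponin to the filament, and of troponin I, which holds contraction off until calcium binds. Tnnt2 averaged 10.76 ± 0.32 in tCNT (SD, n = 3) and 10.05 ± 0.57 in Ctrl (n = 3), with Graphite 15 (11.11) highest and rCNT 4 (9.03) lowest. Tnni3 averaged 9.07 ± 0.19 in tCNT and 8.35 ± 0.65 in Ctrl, with Graphite 15 (9.34) highest and Ctrl 2 (7.60) lowest. For both genes every tCNT sample was above every Ctrl sample.

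The calcium genes Ryr2 and Sln encode the release channel and sarcolipin, an inhibitor of the calcium pump. Sln read 9.86, 7.09 and 9.45 in Ctrl and 10.39, 10.22 and 10.76 in tCNT. It spanned 13.5-fold over the series, from Ctrl 2 to Graphite 15 (10.84). Ryr2 was near the 40th percentile, from 5.88 in rCNT 4 to 7.20 in tCNT 9, and read 6.31, 5.98 and 6.20 in Ctrl against 6.62, 6.47 and 7.20 in tCNT. Neither gene overlapped between tCNT and Ctrl.

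Nppa encodes atrial natriuretic peptide, a hormone of stretched atrial muscle. It read 10.63, 6.38 and 6.51 in Ctrl, 7.56, 9.17 and 9.45 in rCNT and 10.06, 9.01 and 9.51 in tCNT. Ctrl 1 was the highest of the whole series, 19.0-fold above Ctrl 2, so Ctrl overlapped every material. SES read 8.93, 6.97 and 6.99 and BayTubes 7.26, 8.46, 6.50 and 6.26. Graphite read 8.03, 6.64, 10.27 and 9.98 and fullerene 7.00, 6.74, 8.23 and 6.88. Within SES 1 sample stood high and within Graphite 2 did, and Ctrl 3, in which Myh6 was 12.54, was low in Nppa. The array held 10 spots for Nppa, which correlated with each other at 0.878 or more.

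Tnni3k encodes a heart kinase that binds troponin I. It read 6.48, 6.33 and 5.97 in Ctrl, 6.03, 6.33 and 6.28 in rCNT and 7.34, 6.72 and 7.07 in tCNT. The 3 tCNT samples were the highest of all 24, and Ctrl, rCNT and the rest overlapped. SES ranged from 6.32 to 6.52, BayTubes from 5.99 to 6.55, Graphite from 6.09 to 6.63 and fullerene from 6.36 to 6.54. The signal lay close to the 40th percentile, as for Ryr2.

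**Figure D1:**
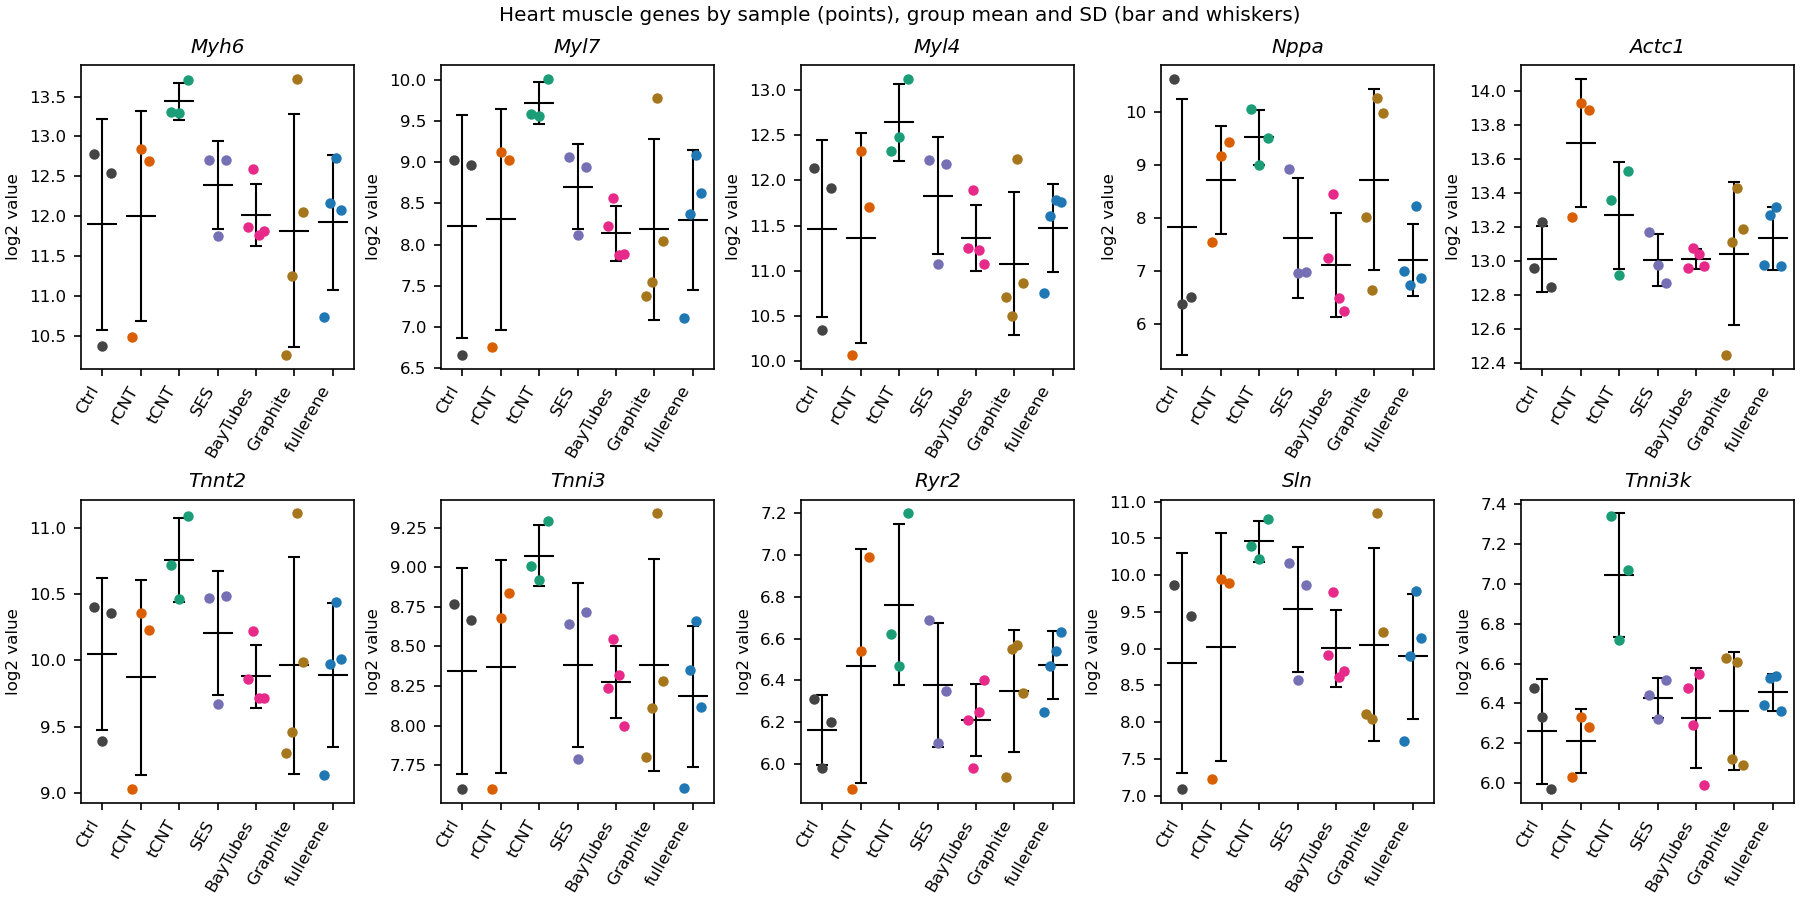
Log2 value (vertical axis) of each of the 10 genes in the 24 samples, by group on the horizontal axis; points are samples, bars are group means and whiskers are SD. For Myh6, Graphite covers 10.26 to 13.72, and the 3 tCNT samples lie between 13.30 and 13.71.

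By mean, tCNT was first of the 7 groups for 9 of the 10 genes and second for Actc1, where rCNT was first. The order below it varied: Myh6 placed SES, BayTubes, rCNT, fullerene, Ctrl and Graphite in turn, from 12.39 to 11.82, and these neighbours lay closer together than the SD within most groups (0.39 to 1.46). An F test in limma over the 7 groups called 1 of 10 members, Tnni3k (adjusted p = 0.0094), where 17.8% of all genes tested were called. For the other members the limma F test gave adjusted p = 0.12 (Myl4), 0.128 (Actc1), 0.161 (Tnni3), 0.205 (Nppa), 0.207 (Myl7), 0.257 (Tnnt2), 0.265 (Sln), 0.273 (Myh6) and 0.414 (Ryr2). Single pools changed this count. Without Graphite 15 the limma F test called 6 members (Myh6, Myl7, Myl4, Tnnt2, Tnni3 and Tnni3k; 18.5% of genes). It called 3 without rCNT 4 (14.5%), 2 without Ctrl 1 (14.9%) or Graphite 13 (19.9%) and 0 without tCNT 7 (17.1%).

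Against Ctrl, tCNT lung held more heart muscle RNA by point estimate in all 10 genes, but the test called 1. Tnni3k rose by 0.73 ± 0.15 (SE; 95% interval 0.41 to 1.06; n = 3 against 3; limma, adjusted p = 0.0322), where 0.708% of all genes were called. The largest estimates were 2.02 ± 1.03 for Nppa, 2.02 ± 0.76 for Sln, 1.74 ± 0.72 for Myh6 and 1.69 ± 0.64 for Myl7. Those of Myl4, Tnni3, Tnnt2 and Ryr2 were 1.42 ± 0.50, 0.87 ± 0.36, 0.83 ± 0.41 and 0.57 ± 0.23. Actc1 had the smallest, 0.19 ± 0.22 (adjusted p = 0.899, limma), with an interval from -0.26 to 0.64. The median of the 10 was 1.14, against 0.00 (0.001) over all genes tested, and 7 of 10 had an unadjusted p under 0.05 in limma, as did 9.3% of genes. In 8 of 10 every tCNT sample exceeded every Ctrl sample, which was so for 8.94% of genes. The exceptions were Nppa and Actc1. The genes rise and fall together from pool to pool, as described below, so these counts are not 10 separate observations. The members were also chosen with earlier results of these data known, so the shares over all genes stand beside them as description only.

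The Tnni3k call did not hold under every setting. With the adjusted p from limma it was lost without an array block (0.0763), with slide as an added block (0.0854), with array as a fixed term (0.618), with only the tCNT and Ctrl samples (0.261) and within slide 1 (0.868), where Ctrl 2 is the lone control. The gene did not pass a filter at the 60th percentile. The call was also lost without any of the 6 tCNT and Ctrl samples in turn (0.0642 to 0.141), and without fullerene 23 (0.0507), SES 11 (0.075) or SES 12 (0.0574). The size stayed between 0.64 and 0.87 when single samples were left out.

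**Figure D2:**
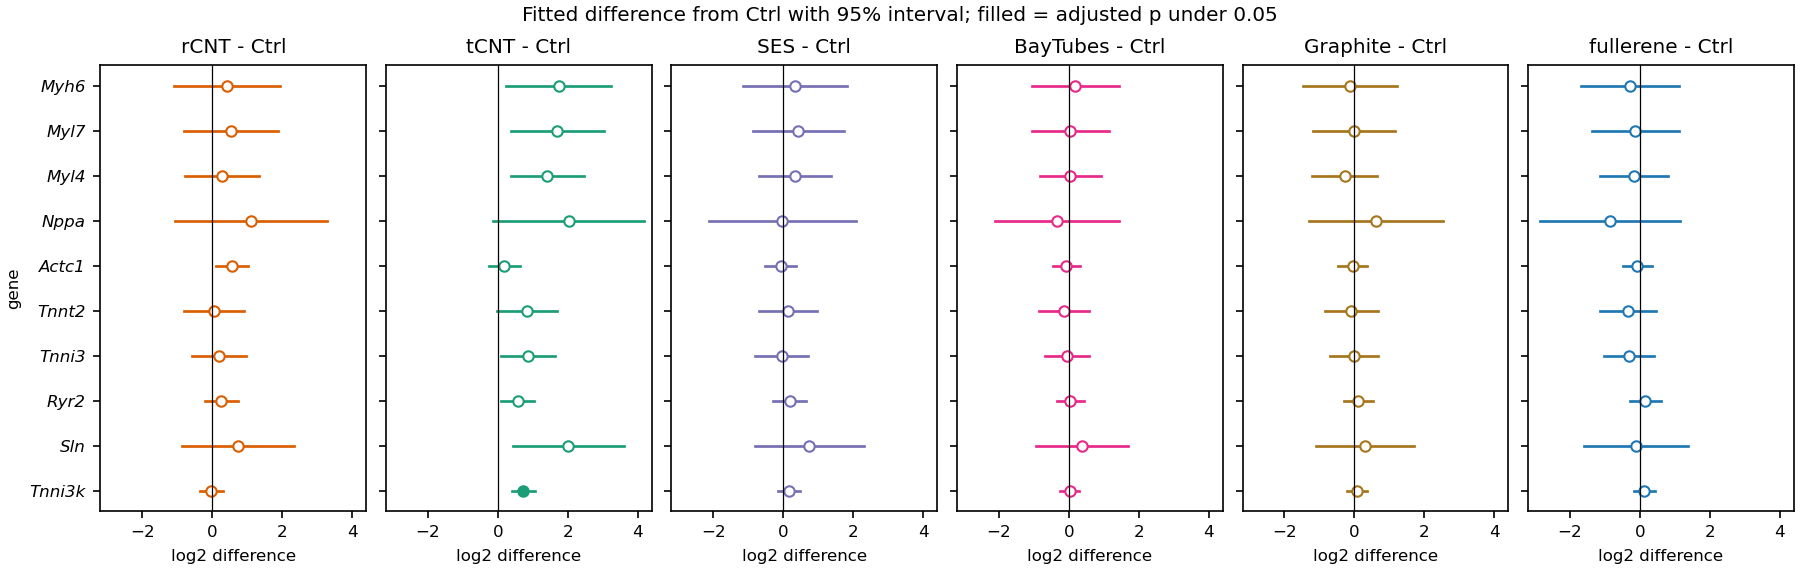
Fitted log2 difference of each gene from Ctrl (horizontal axis) with its 95% interval, 1 panel per material; filled points have an adjusted p under 0.05. Tnni3k after tCNT, at 0.73, is the only filled point.

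After rCNT, 0 of 10 members were called in limma, where 21.8% of all genes were, and 1 of 10 had an unadjusted p under 0.05 (34.7% of genes). That member was Actc1, at 0.57 ± 0.22 (SE, n = 3 against 3; limma, adjusted p = 0.071), and it was the 1 member in which every rCNT sample exceeded every Ctrl sample (18.9% of genes). Tnnt2 had the largest p (0.05 ± 0.41, adjusted p = 0.949 in limma). The Actc1 difference passed the limma threshold without rCNT 4 (0.80, adjusted p = 0.01), without Graphite 13 (0.69, 0.0099) and without tCNT 8 (0.60, 0.0446). Smooth muscle genes moved in the same samples: of 10 tested, 3 rose in limma (Acta2 by 0.97 ± 0.19, Actg2 by 1.52 ± 0.20 and Tagln by 0.61 ± 0.13) and 2 fell (Synm by 1.27 ± 0.20 and Mylk by 0.99 ± 0.35). Actc1 correlated with Acta2 at 0.69 and with Actg2 at 0.608 over 24 samples with group and dye removed, against 0.219 and 0.346 for Myh6. Whether smooth muscle took part in the Actc1 values was not tested, nor whether spots of these related actin genes bind each other's RNA.

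Among the other materials the limma test called 0 of 10 members after SES (0% of genes called), BayTubes (3.18%), Graphite (1.13%) and fullerene (0.26%), and 0 of 10 had an unadjusted p under 0.05 in each, where 4.52, 13.9, 20.5 and 12.1% of genes did, in the same order. The median difference of the 10 was 0.17 after SES, 0.03 after BayTubes, -0.01 after Graphite and -0.14 (-0.145) after fullerene. For SES, Tnni3k had the smallest p (0.15 ± 0.15) and Nppa the largest (-0.03 ± 1.01). For BayTubes these were Sln (0.38 ± 0.63) and Myl7 (0.04 ± 0.53), for Graphite Nppa (0.61 ± 0.92) and Myl7 (-0.01 ± 0.57), and for fullerene Tnni3 (-0.32 ± 0.34) and Sln (-0.11 ± 0.71). With errors of this size a difference of 2-fold in Myh6 or Nppa was not detectable: the interval for Myh6 after SES ran from -1.14 to 1.82.

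In Myh6, Myl7, Myl4, Nppa, Tnnt2, Tnni3, Ryr2 and Sln, Ctrl 2 (slide 1, Cy5) was below both Ctrl samples of slide 2 (Cy3). In Actc1 it was above both. Among the Ctrl samples slide and dye cannot be told apart. In Nppa the samples on slide 2 were themselves far apart (10.63 and 6.51, with Ctrl 2 at 6.38), and in Tnni3k the lowest was Ctrl 3. Set against Ctrl 2 alone on slide 1, the median member was higher after tCNT (1.90), Graphite (1.27), SES (1.08), fullerene (0.99) and BayTubes (0.92). The rCNT sample of slide 1, rCNT 4, was also Cy5 and lay nearer to Ctrl 2. It read 10.48 in Myh6, 6.76 in Myl7 and 7.23 in Sln, against 10.37, 6.66 and 7.09. It was above Ctrl 2 in Nppa (7.56 and 6.38) and below it in Myl4 (10.07 and 10.35) and Tnnt2 (9.03 and 9.39). Set against Ctrl 1 and Ctrl 3 on slide 2, where no tCNT sample lay, the median after Graphite was -1.17 and 5 of 10 members were called lower in limma (2.18% of genes). These were Myh6 (-1.41), Myl7 (-1.46), Myl4 (-1.53), Tnnt2 (-0.92) and Sln (-1.61). On that slide only Graphite had both dyes, so the dye term rests on Graphite 13 (Cy5) against Graphite 14 (Cy3). The Graphite differences there are thus those of Graphite 14 from the Ctrl samples, which were Cy3. BayTubes and rCNT had 1 sample each on that slide, so their calls rest on a spread assumed from the other groups: BayTubes 20 was lower in Myl7 (-0.93) and Myl4 (-1.07; 4.82% of genes called lower), and rCNT 6 was higher in Actc1 (1.67) and Ryr2 (1.37; 8.88% called higher). BayTubes 20, rCNT 6 and fullerene 22 were Cy5, so their differences from Ctrl on slide 2 also depend on the Graphite pair. Actc1 read 13.89 in rCNT 6 against 12.96 and 12.85 in Ctrl 1 and Ctrl 3, and Ryr2 6.99 against 6.31 and 6.20. These gaps were smaller than the fitted values. Graphite 13 was below Graphite 14 in Actc1 (12.45 and 13.11) and Ryr2 (5.94 and 6.55). The array correlation of all samples was carried into these single-slide fits. On slide 1 the lone Ctrl 2 was assumed to vary like the other groups. The medians after BayTubes (-0.51) and fullerene (-0.17) were also below 0 on slide 2, so those for Graphite, BayTubes and fullerene had opposite signs on the slides. For tCNT only Ctrl 2 shared a slide with a tCNT sample.

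Between materials, 15 pairs were compared in the same fit, a choice made after the data had been seen, with p adjusted over genes and not over pairs. Tnni3k was lower in rCNT than in tCNT by 0.76 ± 0.15 (adjusted p = 0.0045, limma; 8.84% of genes called) and higher in tCNT than in BayTubes by 0.71 ± 0.14 (adjusted p = 0.0493; 0.0908%). Actc1 was higher in rCNT than in BayTubes by 0.63 ± 0.20 (adjusted p = 0.0465, limma; 13.1%), than in Graphite by 0.62 ± 0.18 (0.0141; 26.1%) and than in fullerene by 0.64 ± 0.19 (0.0193; 23.1%). No other member was called in any of the 15 pairs. The shares of all genes called by limma were 17.1% for rCNT against SES, 0.0121% for tCNT against SES, 0.0303% against Graphite and 0.145% against fullerene. They were at most 0.0605% in the pairs among SES, BayTubes, Graphite and fullerene (0.0303, 0, 0.0605, 0.0303, 0.0363 and 0.0303%).

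Within groups most members were among the more variable genes of the lung. With group and dye removed, the SD over 24 samples was 1.32 for Nppa, 0.99 for Sln, 0.94 for Myh6, 0.85 for Myl7 and 0.68 for Myl4, against a median of 0.206 over all genes tested. Nppa stood at percentile 99.5 of that spread, Sln at 98.5, Myh6 at 98.3, and 287 genes were above Myh6. Tnnt2 (0.55) and Tnni3 (0.49) followed, while Ryr2 (0.31), Actc1 (0.28, percentile 74.2) and Tnni3k (0.23, percentile 58.3) varied least. The median SD of the members was 0.612 over all samples but 0.245 in Cy3 samples alone, where the median over all genes was not computed. Cy5 samples read lower than Cy3 samples by point estimate in Sln (-0.80), Myh6 (-0.71), Myl7 (-0.67) and Myl4 (-0.54), with limma adjusted p for dye between 0.157 and 0.196, where 4.91% of genes were called for dye.

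The members split by how they moved together. Pearson correlations with group and dye removed were 0.904 to 0.981 in the 15 pairs among Myh6, Myl7, Myl4, Tnnt2, Tnni3 and Sln (Spearman 0.889 to 0.986). Nppa correlated with these 6 at 0.587 to 0.705, Ryr2 at 0.616 to 0.656, Actc1 at 0.50 to 0.659 and Tnni3k at 0.32 to 0.48. Dropping the array shared by rCNT 4 and Graphite 16 left the 15 pairs at 0.899 to 0.982. In Cy3 samples alone they were 0.567 to 0.983 and in Cy5 samples alone 0.945 to 0.997. In Cy5 samples Actc1 was as close to these 6 (0.951 to 0.992) as they were to each other, against 0.392 to 0.751 in Cy3, and Nppa was at 0.774 to 0.884 against 0.492 to 0.818. Ryr2 had opposite signs in the 2 dyes, at -0.621 to -0.438 in Cy3 and 0.833 to 0.943 in Cy5. The single-dye values rest on few pools. With group means removed, a group with 1 sample in a dye adds nothing, which held for rCNT and tCNT in Cy3 and Ctrl and SES in Cy5. In Cy5 the widest pair was Graphite 15 and Graphite 13 (Myh6 13.72 and 10.26). Whether dye changes these correlations was not tested. The samples share arrays, and these correlations are descriptions over samples that are not fully independent.

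**Figure D3:**
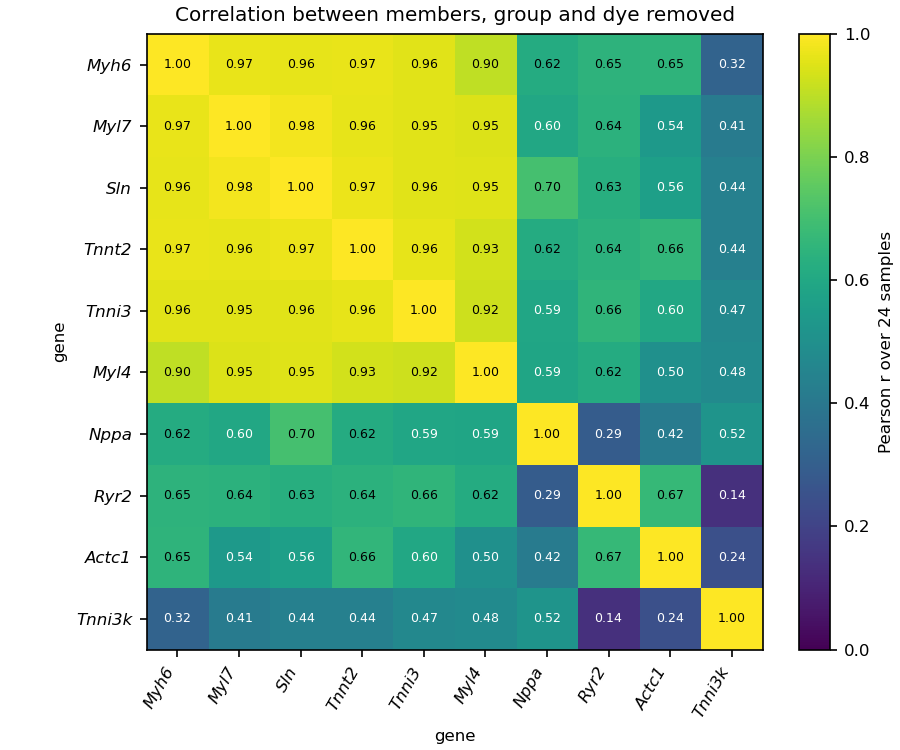
Pearson correlation between each pair of the 10 genes over 24 samples, with group and dye removed; colour and printed number give r. The 6 genes at the upper left correlate at 0.904 or more, and Tnni3k with them at 0.48 or less.

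The mean of the members, each scaled to the same spread, gave 1 score per sample relative to its group. It was highest in Graphite 15 (1.80) and rCNT 6 (0.93) and lowest in rCNT 4 (-1.39), Graphite 14 (-0.87) and tCNT 8 (-0.87). On 6 of the 12 arrays both samples lay on the same side of their group. The Ctrl pools scored 0.73, -0.72 and -0.01 (-0.015) in samples 1 to 3.

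**Figure D4:**
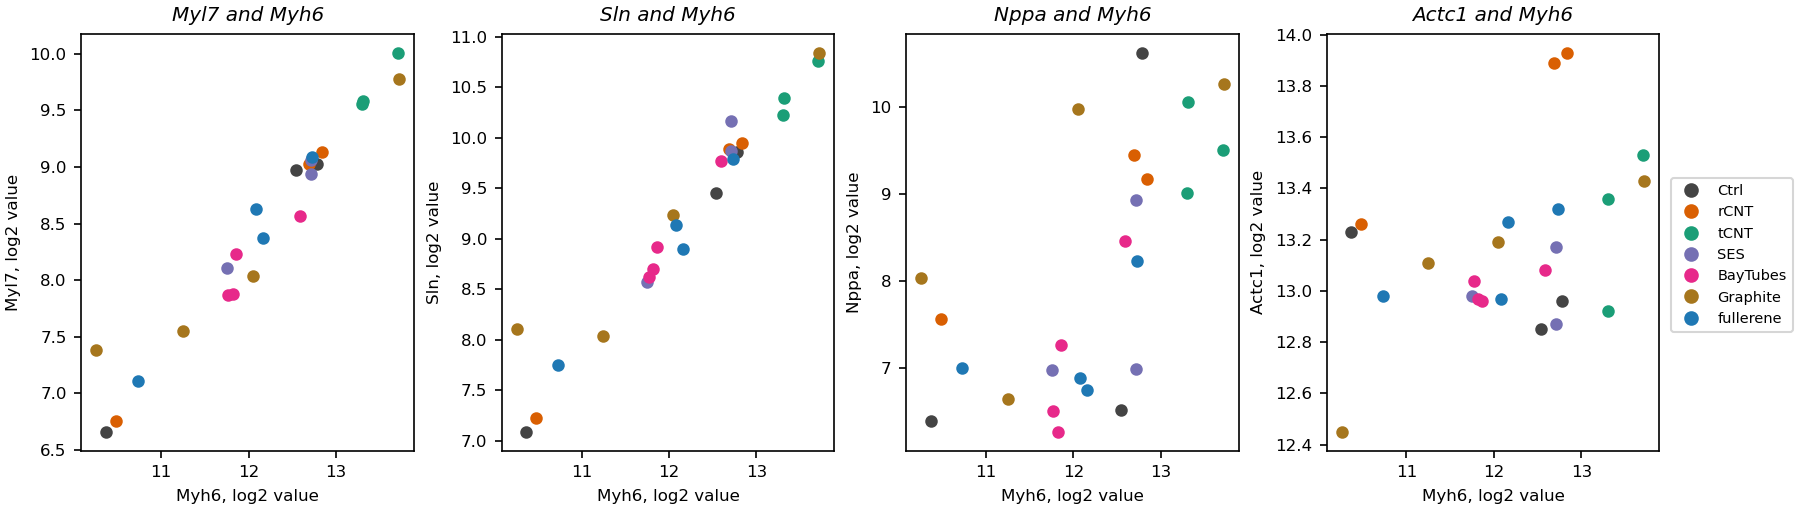
Log2 value of Myl7, Sln, Nppa and Actc1 (vertical axes) against Myh6 (horizontal axes) in the 24 samples, coloured by group. Myl7 and Sln rise with Myh6 almost along a line, whereas Nppa and Actc1 scatter, with Nppa at 10.63 in Ctrl 1 and 6.51 in Ctrl 3 at similar Myh6.

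The 15 other genes whose pattern over 24 samples was most like the members' mean, among all genes tested, had Pearson r from 0.896 to 0.96. They were Ckmt2 (0.96), Mybphl (0.95), Myoz2 (0.943), Mapk10 (0.936), Ttn (0.934), Hamp (0.928), Art1 (0.927), Myom2 (0.926), Myh8 (0.923), Txlnb (0.923), Casq2 (0.91), Sbk3 (0.909), Mb (0.904), Atp2a2 (0.902) and Actn2 (0.896). Of these, 10 were already in the lists of heart, energy and skeletal muscle genes: Ckmt2 is the mitochondrial creatine kinase of striated muscle, Ttn the giant spring of the sarcomere and Atp2a2 the calcium pump. Without the array of rCNT 4 they correlated at 0.864 to 0.953, in Cy5 samples at 0.912 to 0.995 and in Cy3 samples at 0.205 to 0.939. Several of the 15 were close to the 40th percentile, such as Casq2 (mean 5.91).

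Other heart genes were read from lists of 25 sarcomere, 15 calcium and membrane and 9 energy genes. After tCNT the limma test called 0 of 21 sarcomere genes, 0 of 13 calcium and membrane genes and 0 of 9 energy genes tested, with medians of 0.62, 0.14 (0.145) and 0.47 against 0.00 (0.001) over all genes. After rCNT it called 2 of 21, 3 of 13 and 2 of 9 in the same order, where 21.8% of all genes were called. In the sarcomere list 1 gene was higher (Fhl2, 1.18 ± 0.27) and 1 lower (Myzap, -1.04 ± 0.27), and in the calcium list Corin rose by 0.98 ± 0.20 while Popdc2 fell by 0.91 ± 0.31 and Gja5, a gap junction gene also found in arteries, fell by 0.49 ± 0.16. In the energy list Cox7a1 rose by 0.58 ± 0.18 and Cox8b fell by 0.61 ± 0.19. Gja5 also fell after BayTubes, by 0.53 ± 0.13 (limma, adjusted p = 0.029), and no gene of these 3 lists was called after SES, Graphite or fullerene.

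The ventricular genes did not move as a block. Myl2, the ventricular counterpart of Myl7, stayed between 5.82 and 6.19 in all 24 samples, close to the 40th percentile, and correlated with Myh6 at -0.177. Myl3, its essential light chain partner, ranged from 6.81 to 9.31 and followed the members (r = 0.891). Myh7, the beta myosin of ventricle and slow muscle, ranged from 9.23 to 11.38 and did not (r = -0.029 with Myh6). It read 11.07, 11.33 and 11.38 in Ctrl and 9.97, 9.68 and 9.23 in rCNT, a fall of 1.69 ± 0.20 (limma, adjusted p = 8.96e-06). Irx4 was between 5.66 and 6.33. The atrial genes Nppb and Bmp10 were near the 40th percentile (means 5.72 and 5.59), and the venous pole and pacemaker genes Shox2, Tbx18, Isl1 and Hcn4 were above it in at most 2 samples. Of the heart transcription factors tested, 1 of 5 was called after rCNT, where 21.8% of all genes were (Tbx5, which lung mesenchyme also uses, fell by 0.47 ± 0.13).

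Markers of tissues next to the lung were read beside the members. Of 8 thymus genes, 4 passed the filter: Dntt and Ccl25 were above the 40th percentile in 24 samples, Prss16 in 16 and Ptcra in 3, while Rag1, Psmb11 and Foxn1 were above it in no sample and Rag2 in 1. The fast skeletal myosins Myh1, Myh2 and Myh4 were likewise above it in no sample, while 4 of 14 skeletal genes rose after rCNT, where 21.8% of all genes were called (Acta1 by 1.21 ± 0.17, Tnni2 by 0.86 ± 0.13, Tnnc2 by 0.63 ± 0.11 and Mybpc2 by 1.36 ± 0.21). After tCNT 0 of 14 skeletal, 0 of 10 smooth muscle, 0 of 4 thymus, 0 of 3 fat and 0 of 3 cartilage genes were called, where 0.708% of all genes were. After rCNT 0 of 4 thymus genes were called, and 1 of 3 fat genes (Cidea, 0.78 ± 0.12) and 1 of 3 cartilage genes (Comp, 0.39 ± 0.11) rose. Of the oesophageal lining genes Krt13 was above the 40th percentile in 24 samples, Sprr3 in 2 and Krt4 in 0. The cartilage genes Col9a1, Comp, Acan, Col2a1 and Matn1 were above it in 14, 11, 10, 1 and 0 samples, and the brown fat genes Cidea, Ucp1 and Elovl3 in 24, 2 and 0. The part of such tissues in the members' values was not tested.

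Of the fat genes, Adipoq varied with most members inside groups and Plin1 did so less, except with Tnni3k (0.323 for Adipoq and 0.489 for Plin1). Adipoq, the hormone of white fat cells, read 7.07, 6.00 and 5.85 in Ctrl and 5.19, 5.99, 7.60 and 7.07 in Graphite 13 to 16, and correlated with Myh6 at 0.756 and with Actc1 at 0.789. Plin1, which coats the lipid droplets of fat cells, correlated with the members at -0.137 (Actc1) to 0.51 (Myl4), and with Myh6 at 0.152. Once the array that held rCNT 4 was left out, these 3 values were -0.29, 0.386 and 0.018. Plin1 was dim, with a mean of 5.69, and was above the 40th percentile in 8 samples. The genes nearest to Nppa, looked for after the data had been seen, were Retn (0.89), Car3 (0.844), Sbk3 (0.805), Adipoq (0.77) and Cfd (0.767). White fat cells express these except Sbk3, which also followed the members' mean (0.909). Cfd correlated with the members at 0.505 (Tnni3k) to 0.804 (Tnnt2), so it did not follow Nppa alone. Car3 read 9.10, 6.73 and 6.73 in Ctrl, so Ctrl 1 stood apart there as it did in Nppa. Of the 5 fat markers listed, 3 passed the filter (Cidea, Adipoq and Plin1). Their mean level per sample ranged from 6.14 to 6.73 in Ctrl, 6.33 to 6.92 in rCNT, 6.49 to 7.01 in tCNT, 5.97 to 6.62 in SES, 5.92 to 6.26 in BayTubes, 5.98 to 6.92 in Graphite and 6.03 to 6.62 in fullerene, and Ucp1 was above the 40th percentile in 2 samples. The part of fat tissue in the Nppa and Actc1 values was not tested.

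**Figure D5:**
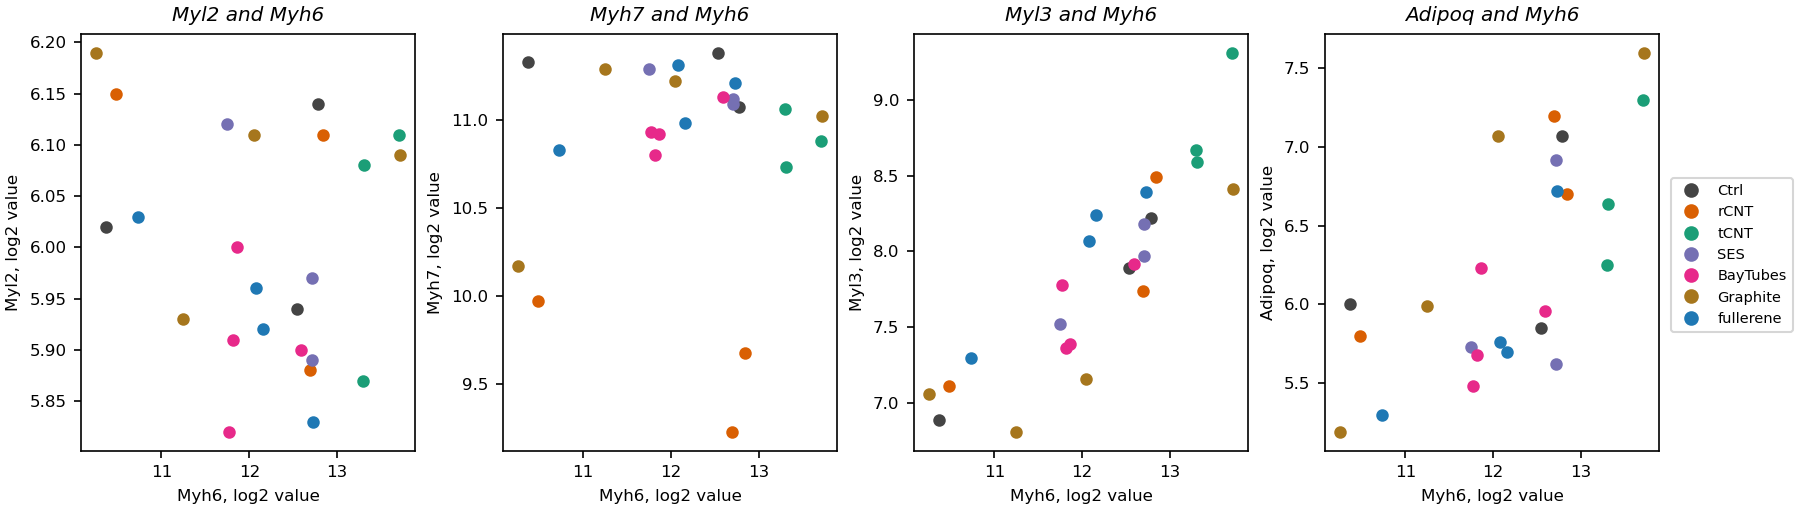
Log2 value of Myl2, Myh7, Myl3 and Adipoq (vertical axes) against Myh6 (horizontal axes) in the 24 samples, coloured by group. Myl2 stays between 5.82 and 6.19 at all levels of Myh6, Myh7 is low in the 3 rCNT samples, and Myl3 and Adipoq rise with Myh6.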

How the data were processed

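Lung RNA of 24 pools of 2 mice was measured on 12 Agilent 2-colour arrays. The authors deposited log2 signals, 1 per spot and sample; their processing notes name Agilent Feature Extraction and limma, without settings. Per the labels, each dye holds its own sample. Of 62976 spots, 31465 had a gene name, brought up to date through GRCm38.p6 (29050 by accession, 2061 by symbol, 349 by synonym, 5 kept). Genes brighter than the 40th percentile of 3 or more samples were tested with limma 3.58.1 (R 4.3.3, statmod 1.5.0). The model held group and dye, arrays entered as random blocks (correlation 0.399), and 2-sided p were adjusted over 16519 genes (Benjamini-Hochberg, threshold 0.05). All groups shared the spread (16 residual and 3.54 prior degrees of freedom). In data simulated for tCNT against Ctrl with 200 of 16519 genes changed, limma found 46.3% of the 1.5-fold, 89.6% of the 2-fold and 97% of the 4-fold changes, and 3.73% of calls were unchanged genes. The median SE of this comparison was 0.159 over all genes and 0.455 over the members, so these shares do not describe the members.

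The members and lists were chosen with earlier results of these data known. The naming rule took all members, called members and those with the smallest and largest p per comparison, the member of each list with the highest mean, counted genes up to 5, and the 15 genes most like the members. Fhl2, Corin and other list genes are named as counted; genes nearest to Nppa, Myl2, Myl3, Plin1 and the tissue markers given by their number of samples were named after their values were seen. Alternatives changed the dye term, array block, filter, normalization, spot, variance prior, slide and samples; the fit without the rCNT 4 and Graphite 16 array, and the pairs of materials, were added after seeing the data. Listed genes without a named spot, and protein sequences, were not analysed here. Binding of RNA from related genes to one spot, as among Myh6, Myh7 and Myh8 or Actc1, Acta1 and Acta2, was not checked.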

Additional observations from a re-analysis of the deposited data

Results flagged for a closer look

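Of 30 sets of 4 values tested for a sample apart (each member in BayTubes, Graphite and fullerene), 2 stood out, about what chance gives at 1 in 20. Myh6 in BayTubes 18 was 12.59, where the others lay between 11.77 and 11.86, a gap of 0.898 of the group's range. Myl4 in fullerene 21 was 10.75, against 11.61 to 11.78 in the others, a gap of 0.834.

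In the pairs of materials, compared after the data had been seen and with p not adjusted over pairs, limma called 2 members. Tnni3k was lower in rCNT than in tCNT by -0.76 (limma, adjusted p = 0.0045), where 8.84% of all genes were called. It was higher in tCNT than in BayTubes by 0.71 (limma, adjusted p = 0.0493), where 0.0908% were. Actc1 was higher in rCNT than in BayTubes by 0.63 (adjusted p = 0.0465), than in Graphite by 0.62 (adjusted p = 0.0141) and than in fullerene by 0.64 (adjusted p = 0.0193).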

How the results depend on the processing

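The median member difference after tCNT was positive in every setting run, from 0.77 to 1.45 with single samples left out and 1.90 within slide 1. Within slide 1 the medians were 1.08 (SES), 0.92 (BayTubes), 1.27 (Graphite) and 0.99 (fullerene), and within slide 2 -1.17 (Graphite). The 1 member called after tCNT became 0 without the array block, with array fixed, at the 60th percentile, with slide as a block, within slide 1, with only the compared groups, and in 9 of the fits without 1 sample (0 to 0). After rCNT, 1 was called with no dye term, without the array block, without the array of rCNT 4 and Graphite 16, and in 3 fits without 1 sample (1 to 1), and 2 within slide 2, where BayTubes had 2 and Graphite 5. The F test called 0 with array fixed, at the 60th percentile and within slide 1, 2 without that array, and 0 to 6 without 1 sample. Differences that were not called with all samples changed sign, and the cause was not tested. Tnnt2 after rCNT (0.05) became -0.13 with no dye term, -0.066 without the array block and -0.01 (-0.006) with slide as a block. Myl7 after BayTubes (0.04) became -0.087 with no dye term, -0.01 (-0.006) with array fixed and -0.93 within slide 2. Myl7 after Graphite (-0.01) became 0.074, 0.049 and 2.35 without the array block, with slide as a block and within slide 1, and Sln after fullerene (-0.11) became 0.22, 0.05 (0.046) and 2.36 in the same order and 0.38 with only the compared groups. With array fixed, Actc1 after tCNT became -0.01 (-0.008), Nppa after SES (-0.03) 0.24 and Nppa after Graphite (0.61) -0.77. Nppa after SES was 1.29 within slide 1, 0.36 within slide 2 and 0.05 (0.048) without the array. Within slide 2 Nppa after Graphite was -1.93 and Sln after BayTubes (0.38 with all samples) -0.86, and within slide 1 Tnni3 after fullerene (-0.32) was 0.85. Without single samples the ranges were -0.31 to 0.45 (Tnnt2, rCNT), -0.79 to 0.35 (Myl7, BayTubes), -0.71 to 0.46 (Myl7, Graphite), -0.21 to 2.32 (Nppa, Graphite), -0.88 to 1.39 (Nppa, SES), -0.55 to 0.80 (Sln, BayTubes) and -0.97 to 0.42 (0.425; Sln, fullerene). The median within-group SD of members (0.612) was 0.245 in Cy3 samples, and their median pairwise r (0.643) was 0.903 in Cy5 samples. The groups share no replicate numbers, so no paired fit by number was possible; the fits with array or slide as a block are given above.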
